A study of Rattus norvegicus with 48 samples.

Results

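miR-22 was examined in rat liver as it regenerated after partial hepatectomy (PHx). It is 1 of 143 miRNAs measured in each of 48 animals and is listed in the deposited values as rno-miR-22. It was chosen by its measured values in untreated animals, where it was lower after surgery than before it. Those values are therefore given as a description with no p-value. The main tests were kept to animals injected with saline or an inhibitor of miR-21. Earlier results of all groups were known when miR-22 and the comparisons were chosen, so these tests are not independent support for its pattern.

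miRNAs are short RNAs that bind partly matching sites in mRNAs, mainly through the seed, bases 2 to 8 of the mature strand, and lower the output of those mRNAs. miR-22 is abundant in liver, where the bile acid receptor FXR is known to induce it. Cyclin A2, which drives cells through DNA replication, is one of its known targets, and low miR-22 has been described in liver cancer. The study also lists miR-22 among miRNAs that rise when hepatic stellate cells, the matrix-producing cells of the liver, are activated in culture.

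Male Sprague-Dawley rats, at least 8 wk old, were fed for 6 to 8 wk a liquid diet with 36% of calories from ethanol (EtOH), or the same share from maltose-dextran in the control diet (CHO). PHx removed 70% of the liver, and what remained was collected later. The sources used here do not say whether the 0 h tissue came from separate rats or from lobes removed at surgery from rats collected later, so each sample is called an animal only as a label. Untreated animals of both diets were studied at 0, 6, 24, and 72 h. Animals injected with saline, or with 7.5 mg/kg of AM21, a locked nucleic acid oligo antisense to miR-21, were studied at 0 and 24 h. The 2 injections were given 72 h before PHx and right after it, and an oligo without a target was not among the groups. Tissue of 0 h can have followed only the earlier injection. In injected animals a 24 h difference from 0 h therefore cannot be told apart from a difference in the number of injections. Each of the 16 groups held 3 animals. RNA was taken from liver tissue as a whole, so fewer cells of a type and less RNA per cell cannot be told apart.

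The mature strands of miR-22 are shown because every value below is a count of a probe for this RNA, and the seed sets which mRNAs it can pair with. RefSeq places the rat hairpin, Mir22, on the plus strand of chr10:60805331-60805425 of GRCr8, in 95 bases. No other RefSeq gene overlaps it. The protein-coding genes on its sides are Wdr81, 11659 bases before it, and Tlcd2, 3965 bases after it. The hairpin is printed first with the 5p and the 3p arms in capitals, followed by each arm with its seed in capitals.
Mir22 hairpin: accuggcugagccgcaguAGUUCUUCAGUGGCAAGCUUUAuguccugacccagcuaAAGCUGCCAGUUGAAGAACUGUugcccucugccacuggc
miR-22-5p: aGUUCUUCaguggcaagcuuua
miR-22-3p: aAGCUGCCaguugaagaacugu
The 5p arm lies at chr10:60805349-60805370 and the 3p arm at chr10:60805387-60805408. In older miRNA naming the name without an arm was that of the 3p strand, but the deposited values do not name the arm that the probe counts. Among the 693 distinct mature rat miRNA names of RefSeq no other carries either seed. Of 144 panel names, 125 matched a RefSeq name, and 0 of the others matched share a seed with miR-22.

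miR-22 was well counted in every animal. It gave 942 to 5107 counts per animal, so the counting error of a single value was at most 3.26%. This made up 0.765% to 3.29% of all counts, with a median of 1.50%. Its rank among the 143 miRNAs ran from 4 to 16, with a median of 8. Values are log2 CPM, counts scaled to a common library size on the log2 scale, in which 1 unit is a doubling. They ran from 13.19 to 14.71 over the 48 animals, and the SD within a group ran from 0.04 to 0.49 with a median of 0.20.

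Several properties of the whole data set bear on miR-22. Totals per animal ran from 58168 to 267582 counts, and miR-122, the dominant hepatocyte miRNA, took 42.1% to 68.8% of them. By their labels, 0 and 24 h animals belong to sets 1 to 3, and every 6 or 72 h animal belongs to set 4. A difference of 6 or 72 h from 0 h therefore cannot be told apart from a difference between sets, whereas both diets at each time came from the same sets. miR-21, the target of AM21, had 15 to 32 counts in AM21-treated animals and 717 to 9934 in untreated animals at 0 and 24 h. With saline, miR-21 ranged from 120 to 9236 counts. The 2 lowest values came from the libraries labelled EtOH 0 h saline replicate 1, with 448, and replicate 2, with 120, so the tests of miR-22, the likeness values and the list counts that use them are also given without this pair.

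In untreated CHO-fed animals, miR-22 was highest before surgery and lower at each later time. At 0 h it was 14.36, 13.86 and 14.14 log2 CPM in the 3 animals. At 6 h it was 13.60, 13.68 and 13.83 log2 CPM, and at 24 h it was 13.82, 13.52 and 13.72 log2 CPM. All the animals at 6 and 24 h were below all those at 0 h. At 72 h it was 13.67, 13.57 and 13.28 log2 CPM, again below every animal at 0 h but overlapping those at 6 and 24 h. Differences of the later group means from that at 0 h were -0.42, -0.44 and -0.61 on the log2 scale for 6, 24, and 72 h, each with a standard error of 0.17. The 72 h mean was 1.53-fold lower than that at 0 h.

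In untreated EtOH-fed animals, the mean of miR-22 at 72 h was the lowest of the 16 groups, although it overlapped CHO-fed animals at 72 h. At 0 h it was 14.29, 14.25 and 14.36 log2 CPM. At 6 h it was 14.00, 13.66 and 13.76 log2 CPM, and at 24 h it was 14.00, 14.07 and 13.63 log2 CPM. As in CHO-fed animals, every later animal was below the 0 h animals of its own diet. At 72 h it was 13.40, 13.45 and 13.38 log2 CPM, below all EtOH-fed animals at 6 and 24 h as well. Relative to 0 h, the means of the 6, 24, and 72 h groups differed by -0.49, -0.40 and -0.89 (log2, standard error 0.17 each). The 72 h mean was 1.85-fold lower than that at 0 h. As a share of all counts, miR-22 went from a mean of 2.00% at 0 h to 0.967% at 72 h, and in CHO-fed animals from 2.16% to 1.13%.

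**Figure D1:**
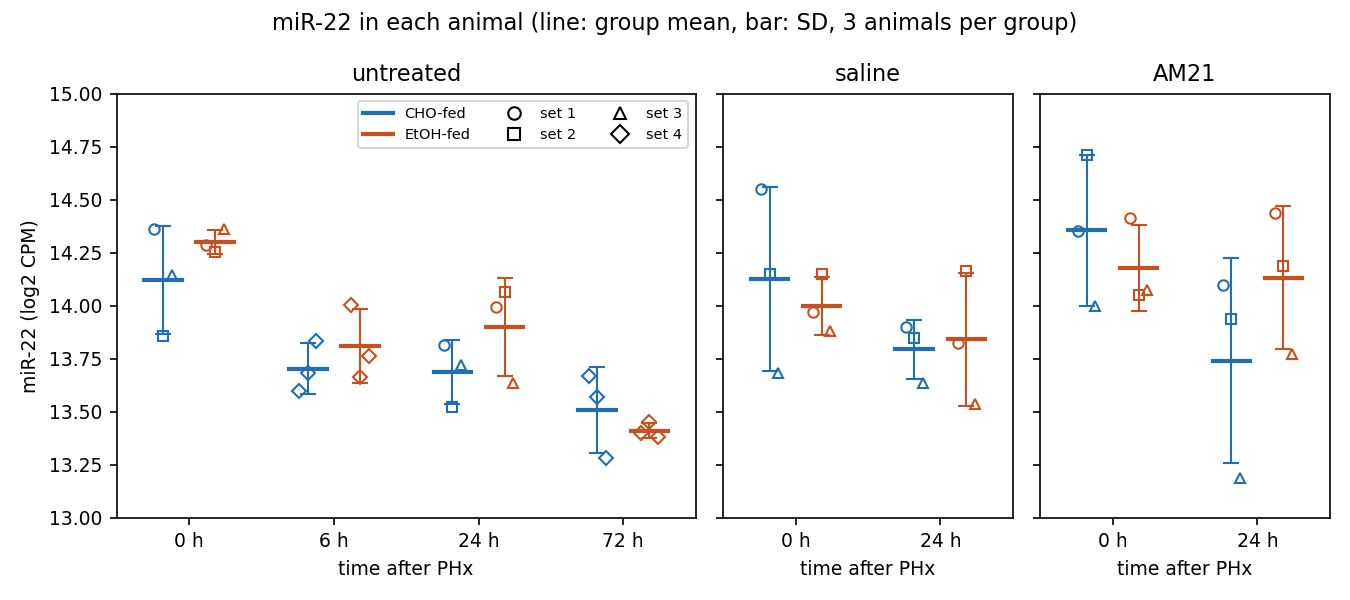
miR-22 level in log2 CPM (vertical axis) against hours after PHx, in untreated, saline-treated and AM21-treated animals, with CHO-fed animals in blue and EtOH-fed animals in orange. Each symbol is 1 animal and its shape gives the set, thick lines are means and bars are SD of 3 animals. The untreated means go from 14.12 (CHO) and 14.30 (EtOH) at 0 h to 13.51 and 13.41 at 72 h.

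The step from 6 to 72 h stayed within set 4 and so did not depend on the sets. With the CHO diet it was -0.20 and with the EtOH diet -0.40 on the log2 scale, each with a standard error of 0.17. The CHO-fed groups overlapped and the EtOH-fed groups did not. Among the 143 miRNAs the median 72 h difference from 0 h was 4.98e-05 for the CHO diet and 0.034 for the EtOH diet on that scale, which placed the centre of the table near 0. Counted from the most negative 72 h difference, miR-22 was 18th in CHO-fed animals, where 71 miRNAs were below 0. It was 6th in EtOH-fed animals, where 66 miRNAs were below 0.

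The diets overlapped in miR-22 at every time in untreated animals. The EtOH-fed minus the CHO-fed mean was, in order of time, 0.18, 0.11, 0.21 and -0.10 on the log2 scale, with a standard error of 0.17 each. Subtracting the 72 h difference of the CHO diet from that of the EtOH diet gave -0.28 with a standard error of 0.23. These values took part in the choice of miR-22 and were not tested.

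Markers of other cell types and the depth of counting also differed along this course. Markers of red blood cells, miR-451 and miR-144, had summed levels of 10.35 to 11.89 log2 CPM (median 10.92) in untreated animals at 0 h and 9.10 to 10.89 (median 9.42) at 72 h. The 3 hepatocyte miRNAs listed, miR-122, miR-192 and miR-194, summed to 18.48 to 19.36 log2 CPM (median 19.10) at 0 h and 19.14 to 19.58 (median 19.35) at 72 h. The 4 of 5 mesenchymal markers in the table summed to 14.09 to 14.44 log2 CPM (median 14.36) at 0 h and 13.65 to 14.40 (median 13.81) at 72 h. Such sums weight the most abundant member, and these markers did not move together. In CHO-fed and EtOH-fed animals the 72 h difference of miR-145 was -0.57 and -0.89, and that of miR-143 -0.06 and -0.25. For miR-199a-3p it was -0.02 and 0.17, and for miR-199a-5p 0.33 and 0.53. The 3 of 4 leukocyte markers in the table had medians of 11.52 and 11.47 log2 CPM, and endothelial miR-126 medians of 15.26 and 14.93. Leukocyte markers also went both ways, with -0.61 and -0.78 for miR-150, 0.58 and 0.18 for miR-142-3p, and 0.37 and 0.57 for miR-223. None of these markers was at 0. Total counts were 58168 to 205241 at 0 h and 163533 to 267582 at 72 h. The part of these shifts in the miR-22 values was not tested.

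Injected animals were not part of the untreated time course and gave their own change from 0 to 24 h after PHx, with saline or AM21. In CHO-fed saline-treated animals the 0 h levels of miR-22 were 14.55, 14.15 and 13.68 log2 CPM and the 24 h levels 13.90, 13.85 and 13.64. In CHO-fed AM21-treated animals the 0 h levels were 14.35, 14.71 and 14.00 log2 CPM and the 24 h levels 14.10, 13.94 and 13.19. Both CHO-fed strata were lower on average at 24 h, and in both the animals overlapped. In EtOH-fed saline-treated animals the 0 h levels were 13.97, 14.15 and 13.88 log2 CPM and the 24 h levels 13.82, 14.16 and 13.54. In EtOH-fed AM21-treated animals the 0 h levels were 14.41, 14.05 and 14.07 log2 CPM and the 24 h levels 14.44, 14.19 and 13.77. These EtOH-fed strata overlapped widely, and in 0 of the 4 strata were all animals at 24 h below all animals at 0 h.

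Over the 24 injected animals, miR-22 was lower at 24 h by 1.22-fold and did not pass the test across all miRNAs. At 0 h the 12 animals had a lowest, median and highest level of 13.68, 14.11 and 14.71 log2 CPM. At 24 h these were 13.19, 13.87 and 14.44 log2 CPM. The difference was -0.29 on the log2 scale (standard error 0.13, 95% interval -0.55 to -0.024), with an adjusted p of 0.0695 by limma. In this comparison 59 of 143 miRNAs (41.3%) were called, 28 lower and 31 higher, and miR-22 ranked 70th by p. A two-sided exact permutation test within diet and treatment, over 160000 arrangements, gave an unadjusted p = 0.0378 for miR-22 alone. The unadjusted p by limma was 0.0340. In one fit on all 48 animals the difference was unchanged and the adjusted p by limma was 0.0290. That fit also takes its spread from the untreated animals, whose values chose miR-22. The SD of miR-22 within groups was 0.17 in untreated and 0.32 in injected animals. Animals of equal set number were lower at 24 h in 9 of 12 pairs.

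**Figure D2:**
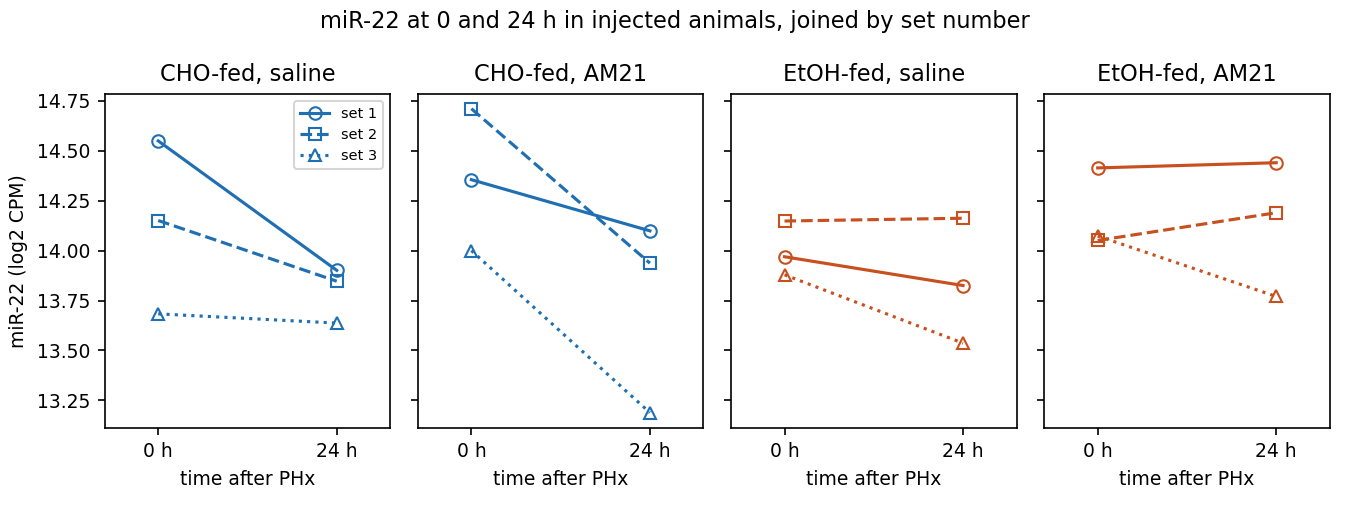
miR-22 level in log2 CPM (vertical axis) at 0 and 24 h after PHx in each diet and treatment, 1 symbol per animal, with lines joining animals of equal set number. The lines go down in all 6 CHO-fed pairs and in 3 of the 6 EtOH-fed pairs, and set 3 (triangles) lies low.

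The set number moved with miR-22 in these animals. All 8 injected animals of set 3 were below the mean of their own group, on average by an offset of -0.30 on the log2 scale. The average offsets were 0.17 in set 1 and 0.13 in set 2. The labels do not say what a set is. Within each set the 24 h difference over all injected animals was -0.26 in set 1, -0.23 in set 2 and -0.38 in set 3, so its direction was the same in each of the 3 sets. With the set number as a term in the fit, limma's adjusted p was 0.0157 over all injected animals and 0.00889 in CHO-fed ones. Both were then called. Earlier results of all groups were known when these comparisons were chosen, so these calls are not independent support.

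By diet, the 24 h difference of the injected animals was estimated as -0.47 with CHO and -0.10 with EtOH, and the difference between the diets was not called. The CHO-fed value, on the log2 scale, had a standard error of 0.18, a 95% interval of -0.85 to -0.10 and an adjusted p of 0.0551 by limma, in a comparison where 37 of 143 miRNAs (25.9%) were called. This value depended on the handling of depth: it was -0.79 (adjusted p = 0.00602) by plain total count and -0.25 (adjusted p = 0.381) with log10 total count in the fit. In one fit on 48 animals, which also takes its spread from untreated animals, its adjusted p was 0.0145. With voom weights it was 0.0378. Each set gave this direction in CHO-fed animals, with -0.45, -0.54 and -0.43 in sets 1 to 3. In EtOH-fed animals it was -0.10 (95% interval -0.47 to 0.27, adjusted p = 0.718), where 15 (10.5%) were called, and the sets gave -0.06, 0.08 and -0.32. Without the 2 saline-treated animals of low miR-21 it was -0.042 (adjusted p = 0.908). The test of the difference between diets gave 0.37 (standard error 0.25, 95% interval -0.16 to 0.90, adjusted p = 0.538). It was 0.064 with log10 total count in the fit, 0.71 by plain total count and 0.43 (adjusted p = 0.621) without that pair of animals. For that difference limma called 0 of 143 miRNAs (0%), and 18 had an unadjusted p under 0.05. Without CHO 0 h saline replicate 3 it called 11 miRNAs, and miR-22, at 0.48 with an adjusted p of 0.285, was not among them.

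By treatment, the 24 h difference in miR-22 had overlapping intervals with saline and with AM21. In saline-treated animals it was -0.24 on the log2 scale (95% interval -0.62 to 0.13, adjusted p = 0.310), in a comparison that called 16 of 143 miRNAs (11.2%). With AM21 it was -0.33 (95% interval -0.70 to 0.043, adjusted p = 0.199), in a comparison that called 25 (17.5%). The difference between them was -0.085 (standard error 0.25, 95% interval -0.61 to 0.44, adjusted p = 0.970), and 1 miRNA (0.699%) was called for it. Without the 2 saline-treated animals of low miR-21, the value with saline was -0.18 (adjusted p = 0.614), that over all injected animals -0.26 (adjusted p = 0.181), and the difference between AM21 and saline -0.14 (adjusted p = 0.997).

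Inhibition of miR-21 was not accompanied by a called difference in miR-22 at either time. At 0 h the 6 saline-treated animals had a lowest, median and highest level of 13.68, 14.06 and 14.55 log2 CPM, and the 6 AM21-treated animals 14.00, 14.21 and 14.71. The difference was 0.20 on the log2 scale (95% interval -0.17 to 0.58, adjusted p = 0.721 by limma), with 4 of 143 miRNAs (2.8%) called. It was 0.26 (adjusted p = 0.842) without the 2 saline-treated animals of low miR-21. At 24 h the levels were 13.54, 13.84 and 14.16 log2 CPM with saline and 13.19, 14.02 and 14.44 with AM21. The difference was 0.12 (95% interval -0.25 to 0.49, adjusted p = 0.906), with 3 miRNAs (2.1%) called. The groups overlapped at both times, and AM21 was higher in 9 of 12 pairs of equal set number. Saline-treated and untreated animals differed by -0.15 at 0 h and 0.03 at 24 h in miR-22, each with a standard error of 0.16.

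Ethanol feeding was likewise not accompanied by a called difference in miR-22 of injected animals. At 0 h the CHO-fed animals had a lowest, median and highest level of 13.68, 14.25 and 14.71 log2 CPM, and the EtOH-fed animals 13.88, 14.06 and 14.41. The difference, EtOH minus CHO, was -0.15 on the log2 scale (95% interval -0.52 to 0.22, adjusted p = 0.664 by limma), with 12 of 143 miRNAs (8.39%) called. That count rested on single animals: it was 1 without CHO 0 h saline replicate 1 or 2, EtOH 0 h saline replicate 1 or 2, or EtOH 0 h AM21 replicate 3. It was 2 without CHO 0 h AM21 replicate 1 or 2, EtOH 0 h AM21 replicate 1 or EtOH 0 h saline replicate 3, 7 without EtOH 0 h AM21 replicate 2, and 27 without CHO 0 h saline replicate 3. Without the 2 saline-treated animals of low miR-21 it was -0.21 (adjusted p = 0.736). At 24 h the levels were 13.19, 13.87 and 14.10 log2 CPM in CHO-fed and 13.54, 13.99 and 14.44 in EtOH-fed animals. The difference was 0.22 (95% interval -0.15 to 0.59, adjusted p = 0.576). Here limma called 0 of 143 miRNAs (0%), also with voom weights, and 14 had an unadjusted p under 0.05.

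**Figure D3:**
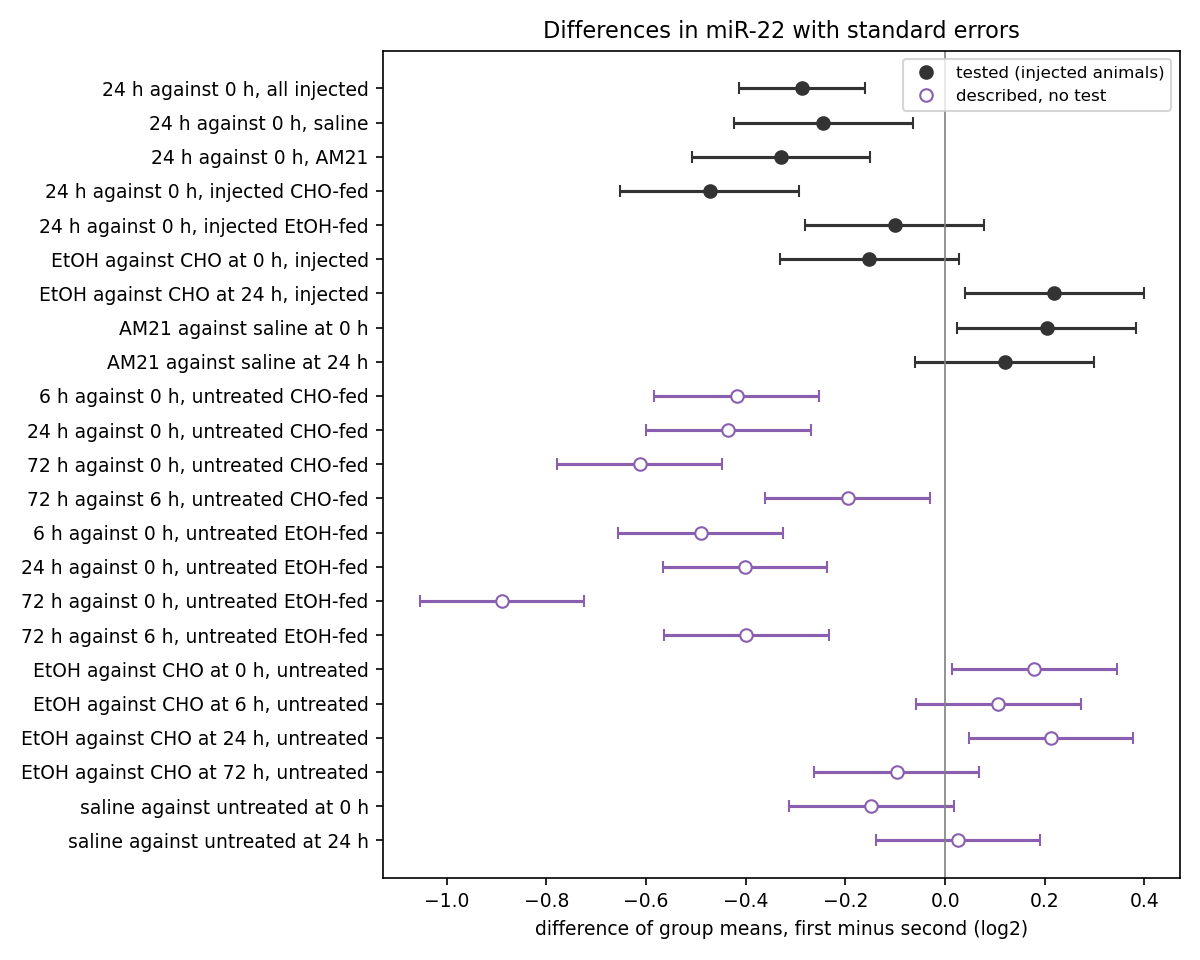
Differences of miR-22 group means on the log2 scale (horizontal axis), first group minus second, with the standard error as bars. Filled points are the comparisons tested in injected animals. Open points are those described without a test, in untreated animals or between saline-treated and untreated animals. The 24 h difference of all injected animals is -0.29 and the 72 h difference of untreated EtOH-fed animals, the farthest left, is -0.89.

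Ordered by mean, the 16 groups ran from CHO 0 h AM21 at 14.35 ± 0.35 log2 CPM (SD, n = 3) down to EtOH 72 h untreated at 13.41 ± 0.04. The span was 0.94 on the log2 scale, or 1.92-fold. All 6 groups at 0 h were among the 7 highest, joined by EtOH 24 h AM21 at 14.13 ± 0.34, and both 72 h groups were the lowest. No step in this order was wide: 0 of the 15 gaps between neighbours exceeded the larger SD of the 2 groups. Over all pairs of groups, 39 of 120 had animals that did not overlap. These pairs reuse the same 16 groups of 3 animals, and the count was not made for other miRNAs. It therefore does not tell whether miR-22 is unusual.

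The miRNA whose group means followed miR-22 most closely was miR-23b. Likeness was measured as Pearson's r over the 16 group means, which share libraries and scaling, and it is a description. It was 0.92 for miR-23b, 0.78 for miR-27b, 0.77 for miR-30c, 0.77 for miR-23a and 0.76 for miR-450a, against a median of -0.07 over the 142 other miRNAs. The lowest were miR-132 at -0.91, miR-93 at -0.82 and miR-351 at -0.81. Of these 8, miR-30c, miR-450a, miR-93, miR-351 and miR-132 were thinly counted, with 11 to 25 counts in their lowest animal. With the EtOH 0 h saline group left out, r over the other 15 group means was 0.92 for miR-23b, 0.78 for miR-27b and -0.92 for miR-132. In the 8 untreated groups and the 8 injected groups taken apart, r was 0.95 and 0.88 for miR-23b, and -0.91 and -0.90 for miR-132. Both miRNAs were picked by r over these same 16 groups, so these values are not separate support.

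Mature strands of these miRNAs are shown for comparison with miR-22, the seed in capitals. miR-23b and miR-23a share a seed and differ by 1 base, A19U, counted from the 5′ end of miR-23b, so a probe may not fully separate them. None of these seeds is that of an arm of miR-22.
miR-23b-3p: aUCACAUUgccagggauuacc
miR-23a-3p: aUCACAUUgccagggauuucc
miR-27b-3p: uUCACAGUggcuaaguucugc
miR-132-3p: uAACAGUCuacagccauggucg
RefSeq places miR-23b-3p at chr17:1819405-1819425 and miR-27b-3p at chr17:1819163-1819183 of GRCr8, on the minus strand, with 142 bases between their hairpins. miR-23a-3p lies at chr19:40859778-40859798 on the minus strand. miR-132-3p lies at chr10:60522091-60522112, on the chromosome and strand of miR-22, with 283197 bases between the hairpins. The sequences shown are the 3p strands, whereas the panel names carry no arm.

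In level, miR-23b was 12.80 ± 0.11 log2 CPM (SD, n = 3) in EtOH-fed untreated animals at 0 h and 11.86 ± 0.13 at 72 h, a difference of -0.94. In CHO-fed animals its 72 h difference was -0.76. For miR-27b the 72 h differences were -0.57 with the EtOH diet and -0.44 with the CHO diet. miR-132, which is known for its induction by neuronal and inflammatory signals, went the other way, from 7.45 ± 0.58 to 8.54 ± 0.02 log2 CPM in EtOH-fed animals, a difference of 1.08. In CHO-fed animals the difference of miR-132 was 0.69.

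**Figure D4:**
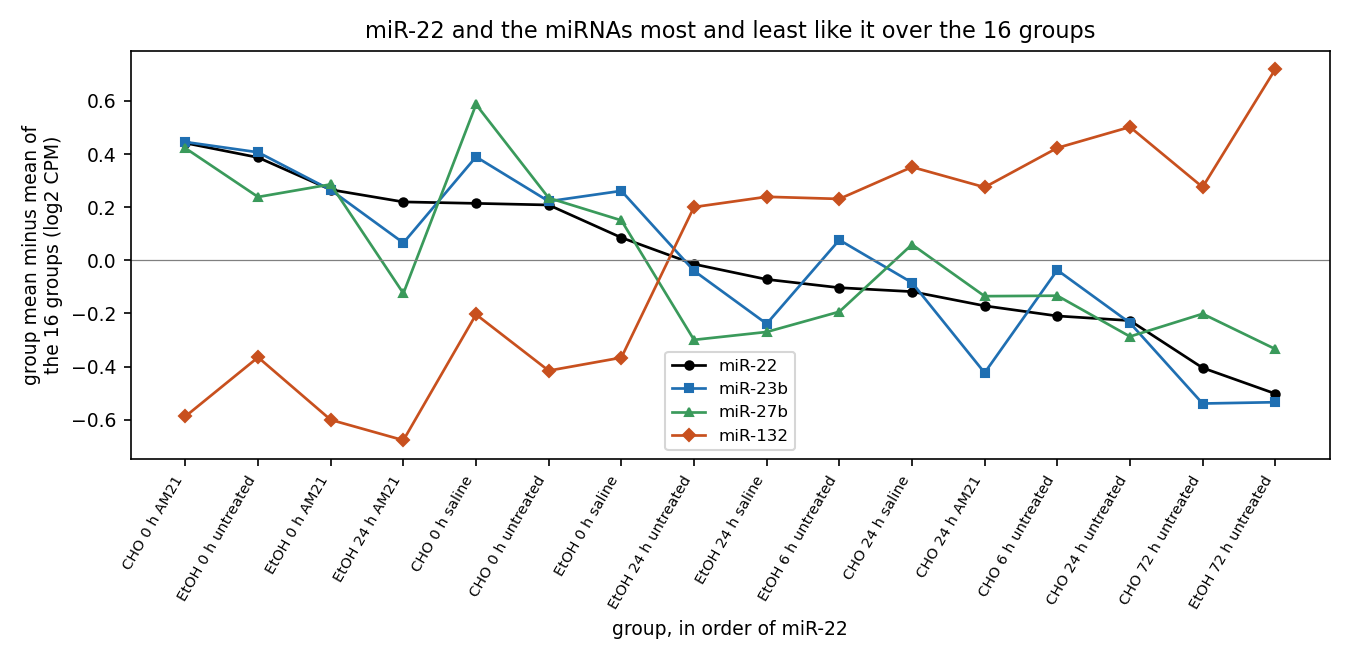
Group means of miR-22, miR-23b, miR-27b and miR-132 in log2 CPM, each minus its own mean over the 16 groups (vertical axis), with groups in order of miR-22. miR-23b and miR-27b go down along the order with miR-22 (r = 0.92 and 0.78), and miR-132 goes up (r = -0.91).

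Animals of the same group gave another picture of likeness. Over the deviations of the 48 animals from their group means, r with miR-22 was highest for miR-27b at 0.63, miR-99a at 0.61 and miR-30a at 0.53. For miR-23b it was 0.04. Without the 2 saline-treated animals of low miR-21, r over 46 animals was 0.63 for miR-27b, 0.62 for miR-99a and 0.53 for miR-30a. Thus miR-27b was near miR-22 both between groups and within them, whereas miR-23b was near it between groups. With the share of counts taken by miR-122, r within groups was -0.37, and with log10 total count 0.015. With miR-21, the inhibited miRNA, it was -0.04 within groups and -0.49 over the 16 group means. Without that pair these were 0.12 over 46 animals and, with its group left out, -0.48 over 15 group means.

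Other miRNAs of growth and of stellate cells were counted beside miR-22 in the injected animals, from 0 to 24 h, where 41.3% of all miRNAs were called and the median change was 0.07 on the log2 scale. Of the 12 growth promoters listed, which include the miR-17 family and miR-21, 9 were in the table. Among them 8 rose, 0 fell, and the median change was 0.50. miR-93, of the miR-17 family, rose by 0.53 (adjusted p = 0.00251 by limma). miR-21 differed by arm: it rose by 2.52 with saline (adjusted p = 0.00157), or by 1.28 (adjusted p = 0.00593) without the 2 animals of low miR-21, and its difference with AM21 was -0.23 (adjusted p = 0.735). All 9 also had 72 h differences above 0 in untreated animals of both diets, with a median of 0.56 for the CHO diet and 0.60 for the EtOH diet. This did not hold at 6 h, where 5 of the 9 were below 0 with CHO and 6 with EtOH, with medians of -0.23 and -0.25.

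The 13 miRNAs listed as repressors of growth in liver cancer, among them let-7c and the miR-29 family, did not move together. In injected animals 2 of them fell and 3 rose at 24 h, with a median change of 0.06. At 72 h their median difference in untreated animals was 0.02 for the CHO diet and -0.06 for the EtOH diet. Of the 15 other miRNAs on the study's list for stellate cell activation, 13 were in the table. At 24 h in injected animals 6 of these rose and 1 fell, with a median of 0.21. One that rose was miR-132, by 0.49 (adjusted p = 0.0123), whereas miR-22, of the same list, was lower without passing the test. By arm, limma called miR-132 neither with saline (0.58, adjusted p = 0.0691) nor with AM21 (0.39, adjusted p = 0.184). In EtOH-fed AM21-treated animals the mean of miR-132 was 7.22 log2 CPM at 0 h and 7.14 at 24 h. Without the 2 saline-treated animals of low miR-21, 36 of 143 miRNAs (25.2%) were called over this time. Of the lists, 6 growth promoters rose, 2 repressors rose and 0 fell, and 4 stellate cell miRNAs rose and 0 fell. miR-93 then rose by 0.41 (adjusted p = 0.0212) and miR-132 by 0.49 (adjusted p = 0.0426). In untreated animals at 72 h the median difference of these 13 was 0.33 for the CHO diet and 0.02 for the EtOH diet.

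For AM21 against saline at 24 h, where 2.1% of all miRNAs were called, 2 of the 13 stellate cell miRNAs, 1 of the 9 growth promoters and 0 of the 13 repressors were called, and those called were lower with AM21. miR-21 is on the first 2 of these lists. For EtOH against CHO at 0 h in injected animals, where 8.39% were called, 1 of the stellate cell miRNAs was higher and none of either growth list was called. Without the 2 saline-treated animals of low miR-21, limma called 0 of 143 miRNAs there, and 21 had an unadjusted p under 0.05. Over the same time, markers of blood also changed: miR-451 fell by 1.01 (adjusted p = 0.00486 by limma) and miR-144 fell by 0.92 (adjusted p = 0.0353) in injected animals. Without that pair they fell by 1.24 (adjusted p = 0.00222) and 1.13 (adjusted p = 0.0336). Their summed level had a median of 10.77 log2 CPM (range 9.99 to 12.54) at 0 h and 9.98 (range 8.67 to 11.04) at 24 h. Untreated animals differed from this: the mean summed level at 0 and 24 h was 10.85 and 10.71 with CHO, and 11.23 and 11.94 with EtOH. The part of blood in the miR-22 values was not tested.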

How the data were processed

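Liver RNA of 48 samples was assayed on the NanoString nCounter panel of 420 rat miRNAs, which counts probes without amplification. The authors scaled the counts by TMM (edgeR 3.34.1), transformed them with voom (limma 3.48.3) and deposited log2 CPM for 143 miRNAs. Whole counts were recovered from these values with the voom pseudocount of 0.5, with 100% within 0.001 of a whole number, and totals had a median of 160078. The number of animals, rather than counting, limits precision.

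Linear models with a mean for every group were fitted to the deposited log2 CPM of all 143 miRNAs (lmFit, eBayes; limma 3.58.1, R 4.3.3). The 24 injected and the 24 untreated animals were fitted apart. Benjamini-Hochberg adjustment ran over the 143 miRNAs of a comparison, and an adjusted p under 0.05 was called. The standard errors of saline against untreated animals came from one fit on the 36 animals at 0 and 24 h. The steps were tested on simulated data. The choice of miR-22, the miRNA lists and the comparisons was made with earlier results of these data known.

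Named miRNAs were miR-22, the 5 with the highest and 3 with the lowest r over group means, the 3 with the highest r within groups, miR-21, and members of short marker lists. Groups came from the labels. Alternatives were RLE size factors, plain total count, the 100 highest probes, a pseudocount of 1, a filter of 50 counts in 3 animals (138 miRNAs left), voom weights, log10 total count, the replicate number, one fit on 48 animals, other controls, a permutation test and leaving out animals. One was added after the data were seen: leaving out both saline-treated animals of low miR-21. The labels give samples as separate without naming an animal for each, so p-values measure the spread between these samples. Sequences are from RefSeq (GRCr8). Plots were made in Python 3.11.15 (matplotlib 3.10.9).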

Additional observations from a re-analysis of the deposited data

How the results depend on the processing

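In all 24 injected animals the 24 h difference of miR-22 (-0.287, limma's adjusted p 0.0695) stayed below 0 under the 11 alternatives run. With each animal left out it was -0.343 to -0.218. In CHO-fed animals the difference (-0.473, adjusted p 0.0551) stayed below 0 under all 9 run (-0.794 to -0.248). With an animal left out it was -0.584 to -0.335. The count filter, the replicate block, the fit on 48 animals and the permutation test keep the group means. They could therefore change only the p, and their sign was fixed in advance. Whether these differences were called changed. With log10 total count in the fit they were -0.216 (0.147) and -0.248 (0.381). With the replicate block, these values (-0.287 and -0.473) had adjusted p of 0.0157 and 0.00889. In one fit on 48 animals, which also takes its spread from untreated animals, they had 0.0290 and 0.0145. With voom weights the differences were -0.291 (0.0496) and -0.474 (0.0378). By the exact permutation test -0.287 had an unadjusted p = 0.0378, beside an unadjusted p of 0.0340 by limma, so this test changed no call. By plain total count the differences were -0.44 (0.0256) and -0.794 (0.00602). Without CHO 0 h saline replicate 3, CHO 0 h AM21 replicate 3 or CHO 24 h AM21 replicate 1 both were called, and without CHO 24 h AM21 replicate 2 the second.

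By plain total count, the untreated CHO-fed differences from 0 h were -0.609, -0.694 and -0.917 at 6, 24, and 72 h, and EtOH minus CHO at 0 h was -0.081. That scaling moved the median of all miRNAs, to -0.30 at 72 h in CHO-fed animals. A scaling shifts all miRNAs of an animal alike, so miR-22 minus the median (-0.61) must be the same with the deposited scaling. This value therefore cannot show whether the difference depends on scaling. With log10 total count in the fit, the CHO-fed values were -0.831 (72 h against 0 h) and -0.383 (72 h against 6 h), and EtOH against CHO at 0 h in injected animals turned to 0.156 (adjusted p = 0.796). The AM21 minus saline change turned to 0.0074 by plain total count and 0.0021 with untreated animals among the controls (-0.190 to 0.053 with an animal left out). The cause was not tested.

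Same-numbered injected animals correlated above 0.1 in 7 of 12 pairs over time (-0.15 to 0.42), 5 of 12 over diet and 4 of 12 over treatment, and 13 of 24 animals correlated best with their own number. Untreated animals did so in 5 of 6 pairs over time (-0.056 to 0.30) and 5 of 6 over diet (-0.27 to 0.79), with miR-22 lower at 24 h in 6 of 6. The rule set was to pair only if every pair was above 0.1, so the main tests did not use the numbers. This rule is strict, and lower correlations do not show that the numbers are without effect. The fit with the replicate block did use them, and there the 24 h difference of miR-22 was called. Rats were pair-fed, but the labels do not say which rats formed a pair. Counts of called miRNAs moved by over 1.5 times in several settings. For 24 h in CHO-fed animals, 37 became 56 by plain total count and 17 with log10 total count. In EtOH-fed animals 15 became 0 by plain total count, 23 in the fit on 48 animals, and 0 without the 2 saline-treated animals of low miR-21, where all injected animals had 36 for 59, saline 5 for 16, AM21 16 for 25, and AM21 against saline at 0 h 2 for 4. For EtOH against CHO at 0 h, 12 became 6 with the 100 highest probes, 1 with log10 total count, 0 without that pair and 1 to 27 without 1 animal. The single call for the AM21 minus saline change became 0 by plain total count, voom weights, log10 total count, the replicate block and the other controls.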
